A study of Rattus norvegicus with 15 samples.

Results

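Of 16782 regions of the rat genome measured in peripheral blood DNA, 391 (2.33%) had a methylation signal in the diabetic retinopathy model (DR model) that stood apart from every other group of the study. A region was counted when the mean log2(MeDIP/input) ratio of the DR model was at least 0.15 above, or at least 0.15 below, the mean of each of the 4 other groups. The DR model was higher in 265 of these regions (1.58% of all) and lower in 126 (0.751%). The members were chosen by these very values, so the size and direction of the difference between the DR model and the other groups are given below as a description, with no test.

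The blood came from male Sprague Dawley rats, an outbred strain, aged 20 weeks. There were 5 groups of 3 rats, and each rat had its own array. Rats of the DR model, CaD, other formula and LTF groups were made diabetic with 45 mg/kg streptozotocin (STZ), which kills the beta cells of the pancreas, injected into a vein. Control rats received citric buffer in its place. DR model rats were then given distilled water by gavage, with no insulin named. CaD rats were given calcium dobesilate, a vasoprotective drug prescribed in diabetic retinopathy, at a daily 0.25 g/kg by gavage, and LTF rats the Luo-tong formula, a herbal medicine, at a daily 2 g/kg. Both of these groups also received 1.5 IU of insulin per day, so that an effect of the treatment and one of insulin cannot be told apart. The remaining group, labelled "another Chinse formula" and called the other formula here, carries no dose in the labels and no statement on insulin. The diabetic rats are a toxin model, and the labels used here give no eye finding for single rats.

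Methylated DNA immunoprecipitation (MeDIP) uses an antibody to pull down DNA fragments that carry methylated cytosine. The recovered DNA, labelled with Cy5, was hybridised together with input DNA, labelled with Cy3, so a high ratio means more recovery of that stretch than of the typical stretch on the array. In mammals cytosine methylation sits mostly at CpG dinucleotides, is copied at cell division and differs between blood cell types. Whole blood is a mixture, and a change in the share of a cell type and a change of methylation within cells cannot be told apart here. Diabetes is known to alter the numbers and state of circulating leukocytes, and leukocytes that adhere to retinal vessels are a known feature of diabetic retinopathy. Regions are named by their position on the rn4 assembly, as the files give it. The genes beside them were not analysed here, and no blood cell marker could be looked up by name.

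Each of the 172669 probes reports on a short stretch of DNA, and probes at most 500 bp apart were joined into regions of 3 probes or more. On the 15 arrays the MeDIP signal was well above background at 77.6% to 90.0% of the probes and the input signal at 91.9% to 96.8%. The lowest MeDIP share was that of DR model replicate 1, against 88.2% and 86.5% in DR model replicates 2 and 3. Outlier spots numbered 4540, 235 and 331 in DR model replicates 1, 2 and 3, and 7186 to 10700 in LTF. Arrays correlated over regions at 0.902 to 0.980, and no 2 arrays held the same values. The arrays were scanned in 6 scans on 3 days. DR model replicate 2 was alone in scan 1, DR model replicate 1 shared scan 5 with control replicates 2 and 3, and DR model replicate 3 shared scan 6 with CaD replicates 1 and 2.

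The arrays of the DR model were unlike one another. The log2 ratios of replicate 3 had an interquartile range of 1.22 over probes, against 1.60 in DR model replicate 1 and 1.52 in DR model replicate 2. The treated arrays ran from 1.20 to 1.35, with 1.22 and 1.23 in CaD replicates 1 and 2 of the same scan, and controls from 1.35 to 1.55. Over regions DR model replicates 1 and 2 correlated at 0.942 with each other, and replicate 3 correlated at 0.966 with replicate 1 and at 0.953 with replicate 2. No array correlated with replicate 1 more closely than replicate 3 did. Replicate 3 in turn was closest to the CaD arrays of its scan, at 0.976 with each, and to other formula replicates 2 and 3, of another scan, at 0.974 and 0.973. By correlation it was thus not the odd array of its group. It is shown separately because its ratios were narrower than those of DR model replicates 1 and 2, as in the treated arrays, and because it deviated least at the members.

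At the 265 higher regions the DR model mean exceeded the mean of the 4 other group means by a median of 0.25 on the log2 scale, with a range of 0.17 to 0.66. At the 126 lower regions the difference had a median of -0.25 and ran from -0.65 to -0.16, and over all 16782 regions the median was 0.02. The gap between the DR model mean and the nearest other group mean had a median of 0.18 at higher regions and of -0.19 at lower regions. Other groups stood apart by the same rule in different numbers. The CaD mean did so at 135 regions (0.804%), the other formula mean at 43 (0.256%), the LTF mean at 532 (3.17%) and the control mean at 1597 (9.52%). The control group was mostly the low one, at 1355 of its 1597 regions, whereas the DR model was mostly the high one.

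**Figure D1:**
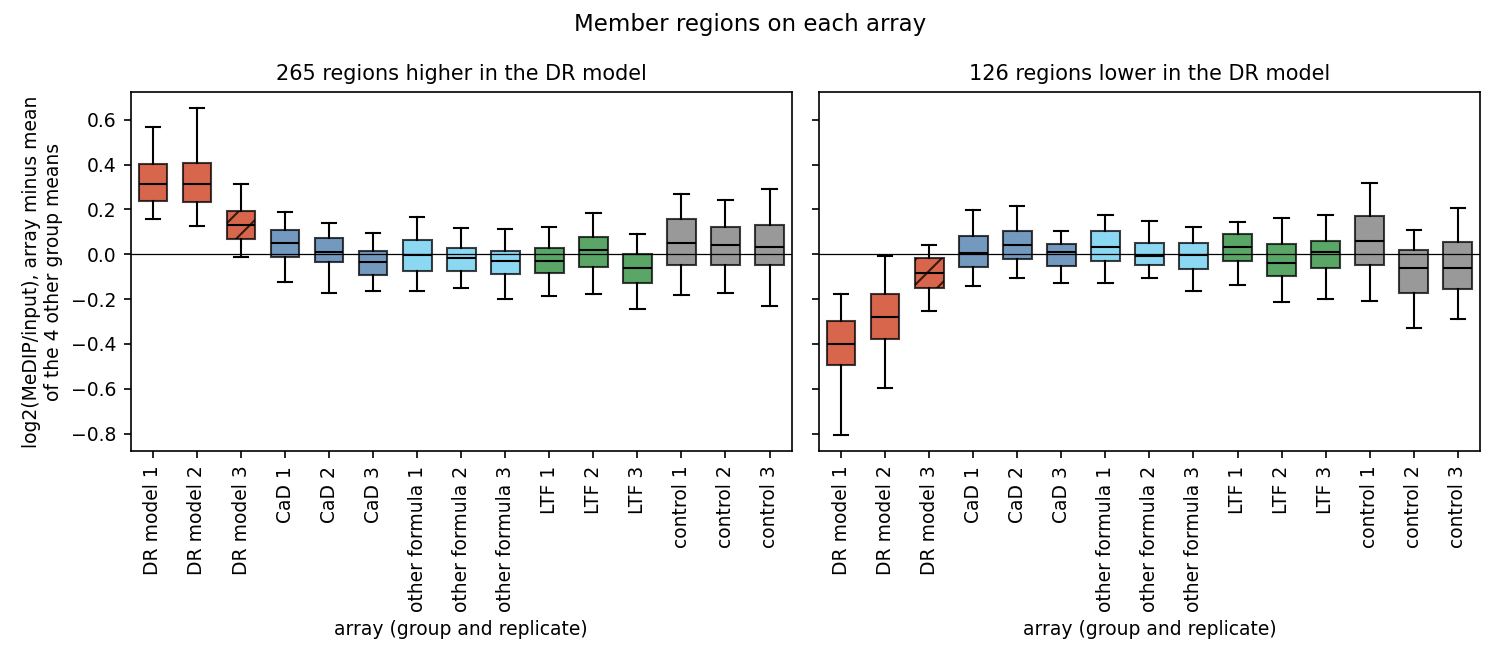
Log2(MeDIP/input) of each array minus the mean of the 4 other group means (vertical axis, log2), over the 265 higher regions (left) and the 126 lower regions (right). Boxes span the quartiles, the line is the median and whiskers reach the 5th and 95th percentiles. Red boxes are the DR model, and the median of its hatched replicate 3 lies between those of the first 2 replicates and those of the 12 other arrays.

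The arrays of the DR model did not contribute alike. Over the higher regions the median deviation from the mean of the other groups was 0.31 in DR model replicate 1, 0.32 in replicate 2 and 0.13 in replicate 3, against -0.06 to 0.05 in the 12 other arrays. Over the lower regions it was -0.40, -0.28 and -0.08 in DR model replicates 1, 2 and 3, against -0.06 to 0.06 in the other arrays. The plot of deviations by array shows replicate 3 on the side of its group in both sets, and closer to the other groups than to its own.

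Counted region by region, DR model replicate 1 passed all 4 other means by 0.15 at 219 of the 265 higher regions (82.6%), replicate 2 at 219 (82.6%) and replicate 3 at 53 (20.0%). Over all regions the shares were 7.91%, 10.7% and 2.58%. At the 126 lower regions the counts were 115 (91.3%), 89 (70.6%) and 13 (10.3%) for DR model replicates 1, 2 and 3, against 7.69%, 6.44% and 0.393% of all regions. Replicate 1, the array with the fewest probes of MeDIP signal well above background, was the farthest out of the 3 at 118 higher and 93 lower regions. Whether its lower share of probes well above background bears on the lower regions was not tested. Replicate 3 was the least extreme of the 3 arrays at 206 higher and 96 lower regions. It still lay beyond the 4 other group means, by any amount, at 202 of the 265 higher regions (76.2%) and 78 of the 126 lower regions (61.9%), against 31.2% and 14.0% of all regions. All these shares at members include the weight of the array itself in the mean that chose the members.

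**Figure D2:**
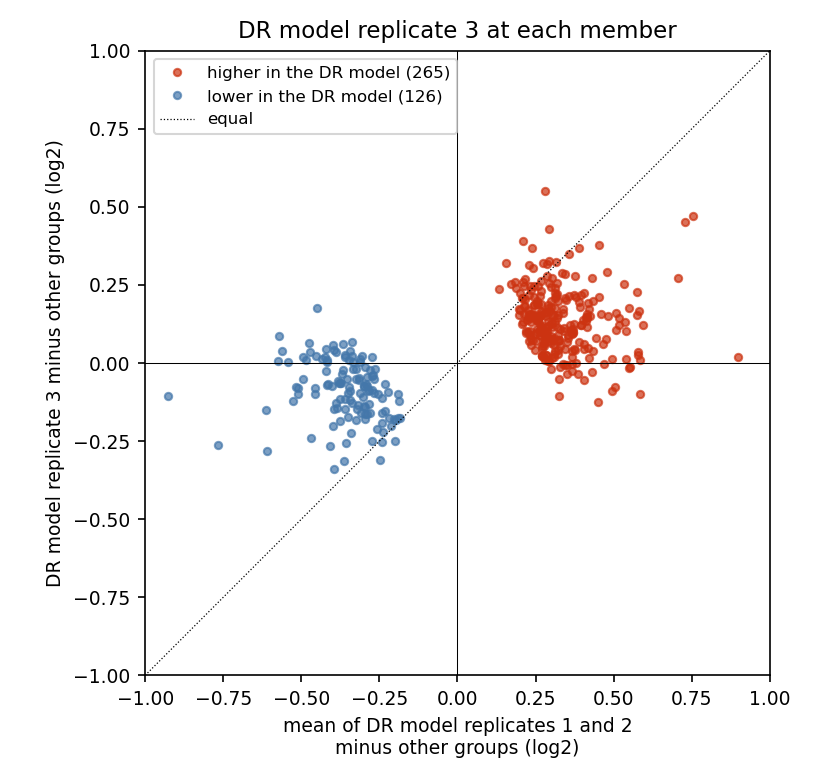
DR model replicate 3 minus the mean of the 4 other group means (vertical axis, log2) against the mean of DR model replicates 1 and 2 minus the same (horizontal axis, log2), 1 point per member region. Most of the 265 higher (red) and 126 lower (blue) regions lie nearer to 0 on the vertical axis than the dotted line of equal values.

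The spread within groups was wide at the members. The SD of the DR model arrays had a median of 0.159 over the 391 members and of 0.118 over all regions. In controls it was 0.129 at members and 0.112 over all regions, and in the treated groups it lay between 0.0757 and 0.0875 at members. The other formula arrays were all in scan 3 and the LTF arrays all in scan 4, so their SD holds no difference between scans. DR model arrays came from scans 1, 5 and 6, controls from scans 2 and 5, and CaD arrays from scans 3 and 6. Rats and scans both enter the SD of those groups and cannot be told apart there. The means of the 4 other groups lay close together at the members, with a median range of 0.128, against 0.168 over all regions, as a rule that needs all of them on one side of the DR model favours.

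The 3 DR model arrays lay above all 12 other arrays at 52 of the 265 higher regions (19.6%), against 0.822% of all regions. They lay below all 12 at 14 of the 126 lower regions (11.1%), against 0.203% of all regions. The rule used the same arrays, so nothing is read from the excess. At the remaining 213 higher and 112 lower members the DR model arrays overlapped with arrays of other groups. DR model replicates 1 and 2, wherever replicate 3 lay, were both beyond the 12 other arrays at 191 of the 265 higher regions (72.1%, against 6.02% of all regions) and 69 of the 126 lower regions (54.8%, against 1.97%), counts that include the 52 and 14 with all 3 arrays beyond.

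The widest gap between the DR model mean and the next group mean, 0.47, was at chrUn:426940-428670, a region of 11 probes on sequence not placed on a chromosome. It had log2 ratios of 2.14, 2.68 and 2.13 in the DR model. The CaD rats had 1.78, 1.43 and 1.51, the other formula 1.90, 2.10 and 1.55, LTF 1.59, 1.87 and 1.37, and controls 1.66, 1.45 and 2.00. All 3 DR model arrays were above the 12 others, by 0.04 between the nearest 2, and all 11 probes had a higher mean in the DR model than over the other groups. The region stayed a member without any one of the DR model arrays.

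Of the next 5 higher regions by size of gap, 4 had only 3 probes. At chr1:46589918-46590279 the DR model had 1.05, 0.89 and 0.69. Its 12 counterparts in the other groups ran up to 0.69, the value of control replicate 1, so the groups met at DR model replicate 3. At chr6:23007766-23008196 the DR model had 0.72, 0.68 and 0.55, CaD 0.37, 0.34 and 0.28, the other formula 0.14, 0.39 and 0.26, LTF 0.24, 0.09 and 0.18, and controls 0.10, 0.36 and 0.53. There the DR model arrays did not overlap with the others, although control replicate 3 was only 0.02 below the lowest of them.

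A region of 10 probes at chr10:29679533-29681227 shows the first 2 replicates apart and the other one not. The DR model had 1.14, 1.37 and 0.78, CaD 0.81, 0.76 and 0.70, the other formula 0.71, 0.58 and 0.59, LTF 0.63, 0.74 and 0.72, and controls 0.79, 0.41 and 0.54. Replicates 1 and 2 of the DR model were clear of all other arrays, and replicate 3 was within the range of CaD and control. At chr5:15428701-15429053, with 0.86, 1.39 and 0.72 in the DR model, replicate 3 was likewise below control replicates 1 and 3, at 0.79 and 0.82. At chrX:154193551-154194048 the DR model had -0.57, -0.64 and -0.89. Of its 3 probes 2 had a value in every group and only 1 on all 15 arrays, so the arrays did not all average the same probes. Values in other groups scattered widely there, with -1.29, -0.93 and -1.96 in CaD and -1.04, -1.48 and -0.68 in LTF, and LTF replicate 3 lay among the DR model arrays.

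Among the lower regions the largest gap, -0.54, was at chrUn:62209071-62209418, a region of 3 probes. The DR model had -2.03, -0.78 and -0.58, CaD -0.38, -0.54 and -0.54, the other formula -0.26, -0.51 and -0.45, LTF -0.62, -0.61 and -0.55, and controls -0.33, -0.63 and -0.34. DR model replicate 1 was by far the lowest array. Replicate 2 was also below the 12 arrays of the other groups, and replicate 3 was inside the range of LTF and control. DR model replicate 1 was likewise by far the lowest at chr1:162510628-162512234, a region of 10 probes with -1.97, -0.95 and -1.06 in the DR model, against -1.24 in the lowest control. It was also the lowest at chr8:93819799-93820925, with -1.41, -0.92 and -0.79 in the DR model. There replicate 2 was below every other group mean, though control replicate 2 was at -0.98.

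At 3 further lower regions replicates 1 and 2 of the DR model were nearer to each other, and both lay below the 12 arrays of the other groups. At chr1:164180391-164181229 the DR model had -1.13, -1.17 and -0.82, CaD -0.36, -0.27 and -0.52, the other formula -0.30, -0.48 and -0.70, LTF -0.40, -0.59 and -0.66, and controls -0.64, -0.82 and -0.73. All 5 of its probes were lower in the DR model, and replicate 3 was level with control replicate 2. At chrX:93150621-93151015 the DR model had -2.04, -1.72 and -1.38, and LTF replicate 2, at -1.53, fell among them. At chr13:72535103-72535478 the DR model had -1.72, -1.68 and -1.23, and 3 arrays of other groups were below that last value.

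**Figure D3:**
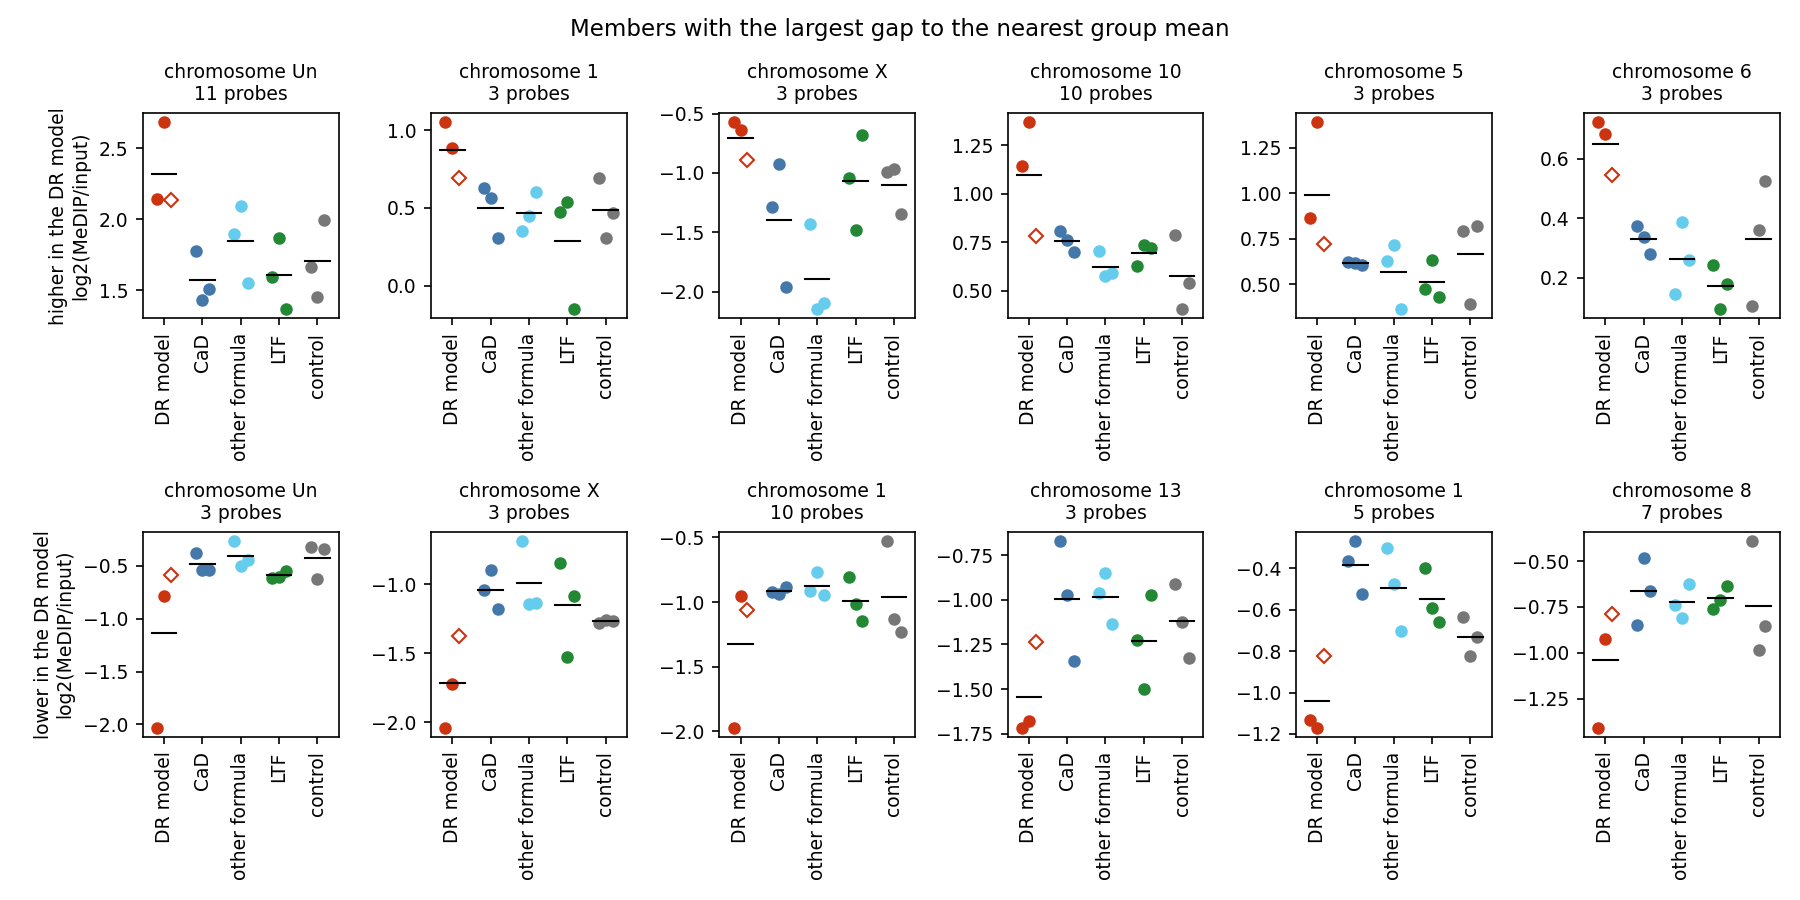
Log2(MeDIP/input) on every array (vertical axis, log2) at the 6 higher and 6 lower members with the largest gap between the DR model mean and the nearest other group mean, in falling order from left to right. Points are arrays, bars are group means, and the open diamond is DR model replicate 3. The diamond is the DR model array nearest to the other groups in 11 of the 12 panels, the exception being chromosome 1 with 10 probes.

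The regions with the clearest separation of single arrays were others than those with the largest mean difference. At chr3:144119798-144120957, a region of 7 probes, the DR model had 0.20, 0.28 and 0.29. The other groups stayed near 0, with 0.01, -0.08 and -0.11 in CaD, -0.09, -0.06 and 0.01 with the other formula, -0.04, -0.05 and -0.04 in LTF, and -0.02, -0.01 and 0.08 in controls. The 2 sets of arrays were 0.12 apart, the widest such distance among the 52 separated higher regions, and replicate 3 was the highest array. A second region on the same chromosome, chr3:155774022-155775742, had 1.15, 1.05 and 1.099 in the DR model, against 0.96 in the highest of the other arrays, control replicate 2.

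Of the next separated higher regions, chr4:161044983-161046411 had 0.87, 0.91 and 0.82 in the DR model, and the nearest other array, control replicate 1, had 0.74. At chr4:56653035-56654428 the DR model had 0.63, 0.44 and 0.48, and the highest other arrays were CaD replicate 2 and LTF replicate 2 at 0.36. At chr5:70877412-70877953 the 3 arrays had 1.31, 1.38 and 1.29, against 1.21 in CaD replicate 1 and in control replicate 3. At these 3 regions and at chr12:36501574-36502197, with 0.75, 0.91 and 0.67 in the DR model, all 3 DR model arrays lay at least 0.07 above every other array, and each region stayed a member without any one of the DR model arrays.

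Separation was narrower at the lower regions. At chr8:128248112-128249792, a region of 9 probes, the DR model had -1.08, -0.97 and -0.84, CaD -0.62, -0.74 and -0.71, the other formula -0.74, -0.70 and -0.72, LTF -0.59, -0.62 and -0.59, and controls -0.40, -0.67 and -0.70. The 2 sets of arrays were 0.09 apart. At chr13:80016481-80017144 the DR model had -0.25, -0.10 and -0.03, controls 0.07, 0.05 and 0.06, and the 9 treated arrays lay between 0.18 and 0.40. This was the one lower region among those named where the controls stood between the DR model and the treated groups by a margin seen on every array.

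The arrays were 0.04 to 0.05 apart at 4 further lower regions. At chr10:88959482-88961167 the DR model arrays were almost level, at -0.27, -0.29 and -0.27, and the lowest other array was LTF replicate 2 at -0.22. At chr2:140739974-140741756 they had -0.43, -0.32 and -0.20, and the lowest other array was control replicate 2 at -0.14. At chr5:138350579-138352260 they had 0.10, 0.08 and 0.22, against 0.26 in LTF replicate 2 and 0.63 in control replicate 3. Only 6 of the 11 probes of that region had a lower mean in the DR model than over the other groups. At chr4:5333369-5334999 the DR model arrays had -0.16, -0.28 and -0.17, and the nearest other array was CaD replicate 2 at -0.12.

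Replicate 3 differed most from the first 2 replicates at chr7:26306570-26306936, a region of 3 probes. The DR model had 0.43, 1.31 and -0.01 there, CaD -0.36, -0.39 and -0.24, and controls 0.48, 0.19 and 0.52, so that replicate 3 was below every control. At chr7:140507100-140508866, with 1.28, 1.83 and 0.87 in the DR model, replicate 2 alone was above control replicate 1, at 1.31. On the lower side, chr1:161491200-161492974 had -1.19, -1.23 and -0.55 in the DR model, and replicate 3 was level with CaD replicate 3, at -0.55.

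The members with the most probes showed differences of 0.21 and -0.26 between the DR model and the mean of the other groups. The 16 probes at chr10:96138039-96140623 gave 0.43, 0.46 and 0.36 in the DR model, 0.17, 0.17 and 0.15 in CaD, 0.18, 0.17 and 0.16 with the other formula, 0.35, 0.35 and 0.05 in LTF, and 0.21, 0.22 and 0.24 in controls. CaD, the other formula and control were tight, and LTF replicates 1 and 2 were just below the lowest DR model array. The 15 probes at chr3:169977081-169979601 gave 0.03, -0.04 and 0.25 in the DR model, where control replicate 1, at -0.05, was lower than any of them.

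Just inside the threshold of 0.15 stood chr14:5119669-5121271, with a mean of 1.65 in the DR model and of 1.49 in controls, the nearest group, and chr2:147986154-147987819, with 0.20 in the DR model and 0.05 in controls. Just outside it stood chr17:83256194-83257553, with 0.34 in the DR model and 0.19 in controls, and chr1:201635128-201636034, with 0.67 in the DR model and 0.52 in controls and LTF. On the lower side chr13:77479726-77481424 (0.04 in the DR model, 0.20 in the other formula, LTF and control) and chr10:44148454-44149337 (-1.48 in the DR model, -1.33 in LTF) were just inside. The regions chr10:46964310-46965686 (-0.84 in the DR model, -0.69 in controls) and chr16:6379113-6379528 (0.20 in the DR model, 0.35 with the other formula) were just outside. The SD of the DR model arrays at these 8 regions ran from 0.03 to 0.39, so the line between inside and outside is finer than the spread between those arrays.

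The members lay on all 20 autosomes, the X chromosome and unplaced sequence, from 4 of 423 regions on chromosome 11 (0.946%) to 35 of 1022 on chromosome 5 (3.42%). Chromosome 1 held 58 and the X chromosome 13 of 606 (2.15%). The closest pair of like direction was chr1:232993608-232995297 and chr1:233002958-233004643, 7661 bp apart. The first had 1.09, 1.36 and 1.05 in the DR model and a highest other array of 1.11, in control replicate 3, and the second had 0.21, 0.30 and 0.17 and a highest other array of 0.18, in control replicate 1.

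The second closest pair, chr1:211540553-211541408 and chr1:211550113-211551536, was 8705 bp apart. The DR model had 1.18, 0.86 and 0.92 at the first and 0.52, 0.50 and 0.24 at the second, where other formula replicate 1, at 0.34, was above replicate 3. Among the higher members, 77 had a region that was not a member within 10 kb, and 49 of these neighbours (63.6%) also had a higher mean in the DR model, against 57.3% of all non-members. Of 32 such neighbours of lower members, 15 (46.9%) were lower in the DR model, against 42.7% of all non-members.

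Regions with few probes were common among the members. The median member had 9 probes and spanned 1556 bp, against 10 probes and 1655 bp for the median of all regions. Regions of 3 to 5 probes made up 92 of the 391 (23.5%), against 8.32% of all regions. Of the regions with 3 to 5 probes 6.59% were members, of those with 6 to 8 probes 3.21%, with 9 to 10 probes 1.89% and with 11 or more 1.09%. The median SD of the DR model arrays ran in the same order, at 0.155, 0.127, 0.116 and 0.105. All probes of a region moved in the direction of its mean at 113 members (28.9%), against 3.47% of all regions. The members were chosen by the mean over these same probes, and full agreement is easier with few probes, so nothing is read from the excess.

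Higher and lower members differed in the level of the ratio itself. In 5 bins of regions of equal number, ordered from low to high by the mean of the 4 other groups, the higher members numbered 16, 35, 45, 51 and 118, and the lower members 28, 52, 27, 13 and 6. Over all regions of a bin, not the members alone, DR model replicate 1 deviated from the other groups by medians of -0.10, -0.05, -0.00027, 0.04 and 0.11, and replicate 2 by -0.09, -0.03, 0.02, 0.06 and 0.14. Replicate 3 ran the other way, at 0.12, 0.06, 0.03, 0.0046 and -0.02. Higher members thus lay mostly where replicates 1 and 2 were high throughout, and lower members mostly in the bottom 3 bins, and the part of this array-wide pattern in the members was not tested.

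**Figure D4:**
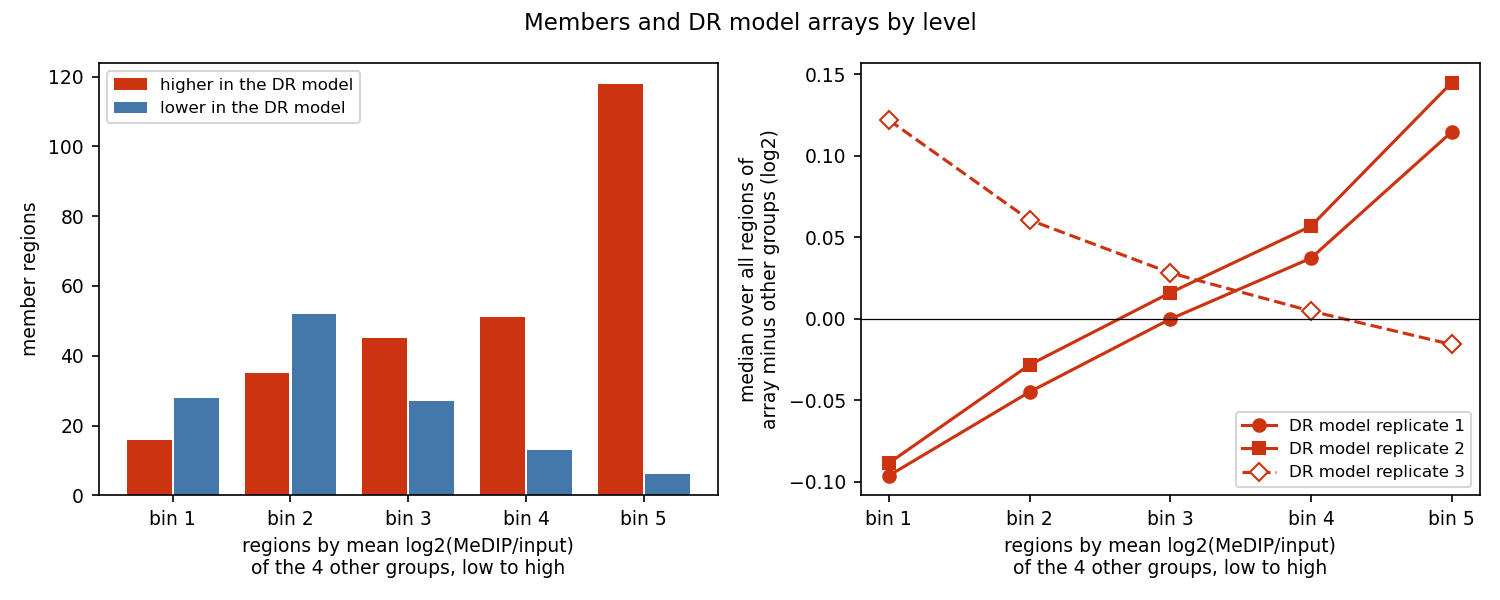
Left, number of higher (red) and lower (blue) member regions (vertical axis) in 5 bins of regions ordered by the mean log2(MeDIP/input) of the 4 other groups. Right, median over all regions of a bin of each DR model array minus the 4 other groups (log2). Replicates 1 and 2 climb from bin 1 to bin 5 and replicate 3 falls.

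With the distributions of all arrays made equal by quantile normalization, 109 regions were higher and 104 lower in the DR model by the same rule, in place of 265 and 126. Of the 391 members 138 (35.3%) were among them, which is 64.8% of the 213 regions of that setting. In this setting the median deviation of replicate 3 was 0.17 at higher and -0.16 at lower regions. Replicate 3 entered the mean that chose these regions, so nothing is read from these medians. With replicate 3 left out of the choice, it was on the side of the rule at 7.57% of the regions chosen as higher and 8.94% of those chosen as lower. The share over all regions was not computed in this setting. Loess within arrays gave 220 higher and 43 lower regions, and background correction by normexp 25 and 6. The normexp regions shared 23 with the 391 members, which is 74.2% of the 31 and 5.88% of the 391.

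The Cy5 and Cy3 signals were also read apart. The MeDIP signal of the DR model deviated in the direction of the ratio at 238 of the 265 higher regions (89.8%, against 47.2% of all regions) and at 124 of the 126 lower regions (98.4%, against 52.8%), with medians of 0.21 and -0.32 on the log2 scale. The input signal deviated by medians of -0.03 and -0.04, against -0.02 over all regions. The ratio that chose the members is made of these signals, so nothing is read from the excess. The MeDIP difference was the larger of the 2 at 207 higher and 115 lower regions. At a few named regions the input carried the ratio: at chr3:155774022-155775742 the DR model differed from the other groups by -0.34 in the input signal and by -0.08 in the MeDIP signal, and at chr5:70877412-70877953 by -0.32 and -0.07.

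The rule was also run without 1 DR model array, and that array was then read at the regions chosen. The 12 arrays of the other groups entered both the choice and the reading, so the shares that follow are not independent of the choice. With DR model replicate 1 left out, the other DR model arrays chose 305 higher and 95 lower regions. Replicate 1 itself passed all 4 other means by 0.15 at 106 of the higher ones (34.8%) and at 32 of the lower ones (33.7%), against 7.91% and 7.69% of all regions. With replicate 2 left out, 331 higher and 219 lower regions were chosen, and replicate 2 was on the same side at 28.7% and 22.8% of them, against 10.7% and 6.44% of all regions.

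With replicate 3 left out, replicates 1 and 2 chose 907 higher and 504 lower regions. Replicate 3 was on the same side at 45 of these (4.96%) and 12 (2.38%), against 2.58% and 0.393% of all regions. It passed the 4 other means on the opposite side at 4 of the regions chosen as higher and at 10 of those chosen as lower, so that at the lower ones the counts on both sides were close. Its median deviation was 0.05 at the regions chosen as higher and 0.01 at those chosen as lower, against 0.03 over all regions.

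With 1 replicate number left out of all 5 groups, no array was shared between choice and reading. Replicates 1 alone were on the side of the rule at 14.5% of the 393 regions chosen as higher by the other 10 arrays and at 10.5% of the 114 chosen as lower, against 6.33% and 8.64% of all regions. Replicates 2 alone were so at 10.2% of 410 and 9.96% of 271, against 10.5% and 7.53%. Replicates 3 alone were so at 2.01% of 844 and 0.298% of 672, against 3.65% and 0.280%. Read this way, the share among chosen regions was below or close to that over all regions in 3 of the 6 readings, and largest relative to it for replicate 1 at higher regions.

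**Figure D5:**
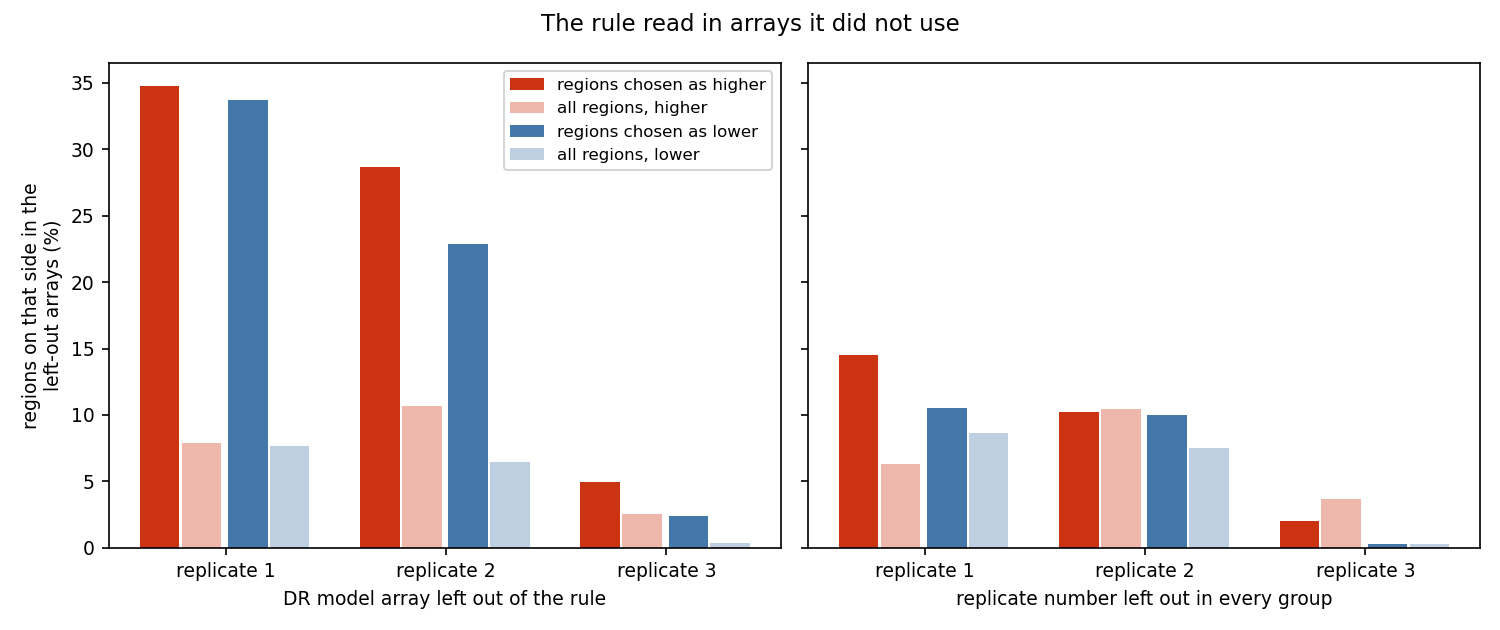
Share of regions (vertical axis, percent) where the left-out array or arrays put the DR model beyond the 4 other groups by at least 0.15. Dark bars are regions chosen without those arrays, pale bars all 16782 regions, for higher (red) and lower (blue) regions. On the left 1 DR model array was left out, on the right 1 replicate number in every group.

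Within scans the comparison was possible at 2 places, with arrays that the rule had also used. In scan 5, DR model replicate 1 exceeded the mean of control replicates 2 and 3 at 264 of the 265 higher regions and was below it at 125 of the 126 lower ones, with medians of 0.27 and -0.33, against 60.1% and 39.9% of all regions. In scan 6, DR model replicate 3 exceeded the mean of CaD replicates 1 and 2 at 230 higher regions (86.8%) and was below it at 111 lower ones (88.1%), against 49.5% and 50.5% of all regions. The medians in scan 6 were 0.10 and -0.11, and the difference reached 0.15 at 78 higher regions (29.4%, against 5.68% of all regions) and 38 lower ones (30.2%, against 5.80%).

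In limma fits over all 15 arrays, with p-values adjusted by the Benjamini-Hochberg method over all regions, comparisons of single groups with the DR model passed a threshold of 0.05 at few regions. The comparisons share the 3 DR model arrays, and the rule used all of them. CaD against the DR model gave 0 regions (0%), with 2514 at an unadjusted p under 0.05. The other formula against the DR model also gave 0 (0%), with 2535 unadjusted, as did the DR model against control (0%), with 2134 unadjusted. LTF against the DR model gave 151 regions, 0.900% of those tested, and 3261 unadjusted. Of the members 34 were among the 151 (8.70% of members, 22.5% of the 151), from which nothing is read because the rule used this contrast.

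Those counts rested on single arrays. Without DR model replicate 3, CaD against the DR model gave 1428 regions, the other formula 1134 and LTF 1307. Without DR model replicate 1, or without LTF replicate 1, LTF against the DR model gave 0 regions (2601 and 2416 unadjusted), and its count moved by more than 1.5 times without each of 14 of the 15 arrays, the exception being control replicate 3. The DR model against control gave 39 without control replicate 1, 28 without DR model replicate 2, 3 without DR model replicate 3 and 2 without control replicate 2. The DR model against control also gave 250 regions after loess within arrays.

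Treated rats and controls were compared at the members by contrasts that leave out the DR model mean. The fit took its spread from all 15 arrays, those of the DR model among them. The SD of the DR model arrays had a median of 0.159 at members, against 0.118 over all regions. That wider spread enters the SE at the members and bears on the shares that follow. CaD and control differed at 1 of the 391 members (0.256%), against 7.49% of all regions, and the other formula and control at 0 members, against 2.44%. LTF and control differed at 6 members (1.53%), against 7.28% of all regions. At an unadjusted p under 0.05 the counts were 20 members for CaD (5.12%, against 27.5% of all regions), 23 for the other formula (5.88%, against 22.5%) and 34 for LTF (8.70%, against 25.4%). The rule used the treated and control means and keeps only regions where both lie on the same side of the DR model. It therefore bears on these shares and on which regions pass, and the regions are given with their values and no p. CaD differed from control at chr7:26306570-26306936, described above, with means of -0.33 in CaD and 0.39 in control (difference -0.72 ± 0.21, SE), and of 0.58 in the DR model. The SD there was 0.67 in the DR model, 0.08 in CaD and 0.18 in control, and all of these enter that SE.

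The 6 members where LTF differed from control were 5 higher and 1 lower. At chr8:69589292-69589744 the mean was -0.96 in LTF and -0.33 in control (difference -0.63 ± 0.15, SE), with -0.12 in the DR model. At chr4:165653728-165654254 it was 0.07 in LTF and 0.47 in control (difference -0.40 ± 0.09, SE), with 0.64 in the DR model. The lower member, chr4:152878080-152878642, had -0.26 in LTF and -0.56 in control (difference 0.30 ± 0.08, SE), and -0.78 in the DR model. The remaining 3 were chr1:210247397-210248352, chr4:55701348-55702096 and chr10:99858561-99860134, with differences of -0.34, -0.46 and -0.32. The limma fits measure the spread between rats of 1 array each, which in the DR model, CaD and control groups includes the spread between scans. Scan 4 held all LTF arrays and no other, so LTF and its scan cannot be told apart. With scan as a random block, CaD against control passed at 1 region and LTF against control at 4, in place of 1257 and 1221. Without CaD replicate 2 the CaD count was 1, and without LTF replicate 2 the LTF count was 163.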

How the data were processed

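The deposited scanner files were written by Agilent Feature Extraction 11.0.1.1, with positions on the rn4 assembly, per the file headers. They give an intensity per spot and channel, already background-subtracted and dye-normalised per the file headers, and a deposited log10 ratio of Cy5 over Cy3. The authors' value table served as an alternative on the assumption that it holds log2 values, since no source used here states its base, centring or direction. The submitters' processing notes name limma without saying for what.

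For 172669 probes, after 6856 control spots were left out, log2 of Cy5 over Cy3 processed signal was taken, outlier spots were dropped per array, and each array was centred on its median with no further normalization. Of 17668 runs of probes at most 500 bp apart, 884 with fewer than 3 probes and 2 with a missing value were left out. Run means were fitted with limma 3.58.1 in R 4.3.3 (lmFit, eBayes, 5 group means, 15 arrays, Benjamini-Hochberg over 16782 regions), and the code was tested on simulated data. The 3 arrays of a group limit the precision.

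The members, lists and rules were chosen with earlier results of these data known. Regions were named where the gap to the nearest group mean was largest (6 per direction), where arrays were farthest apart (6), at the threshold (2 inside and 2 outside), by most probes (1), as the 2 closest pairs, and where replicate 3 differed most from replicates 1 and 2 (2). The regions where a treated group and control differed are outside this rule, apart from chr7:26306570-26306936, and were named after their values were seen.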

Additional observations from a re-analysis of the deposited data

How the results depend on the processing

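The members depended on most settings. Higher and lower members numbered 25 and 6 after normexp background correction, 21 and 12 in the authors' value table, 587 and 400 with the median over probes, 504 and 287 with a gap of 250 bp, 878 and 339 at a threshold of 0.10, and 90 and 49 at 0.20. Quantile normalization gave 109 higher members, loess within arrays 43 lower ones and the median of a group's arrays 427 higher ones. With 1 array left out at a time, higher members numbered 220 to 907 and lower members 95 to 504, both upper values being without DR model replicate 3, and lower members numbered 219 without DR model replicate 2. CaD against the DR model gave 5 regions with normexp, 79 in the authors' table, 3 with quantile normalization and 0 to 1428 with 1 array left out. The other formula against the DR model gave 14, 142 and 1 in these settings, 2 with the median over probes and 0 to 1134 with 1 array left out. LTF against the DR model gave 344 with normexp, 325 with outlier spots kept, 299 with input above background, 255 with a gap of 250 bp, 0 with scan as a random block (1470 unadjusted), 2 with scan day as a random block and 0 to 1307 with 1 array left out. The DR model against control gave 4 in the authors' table, 250 with loess, 39 with scan as a fixed block, which is DR model replicate 1 against control replicates 2 and 3, and 0 to 39 with 1 array left out. CaD against control gave 2232 with normexp, 279 with quantile normalization, 2941 with loess, 329 with the median over probes, 0 with scan as a fixed block (1368 unadjusted), 1 with scan as a random block and 1 to 1910 with 1 array left out. The other formula against control gave 642 with normexp, 998 in the authors' table, 89 with quantile normalization, 1708 with loess, 755 with outlier spots kept, 694 with input above background, 139 with the median over probes, 0 with scan as a fixed or random block (992 and 2010 unadjusted) and 0 to 974 with 1 array left out. LTF against control gave 2388 with loess, 664 with the median over probes, 4 with scan and 527 with scan day as a random block, and 163 to 1667 with 1 array left out. Scan as a fixed block could not be estimated for LTF. The consensus correlation was 0.390 for scan and 0.0968 for scan day. The main fit did not treat replicate numbers as pairs. Correlations of same-numbered deviations ran from -0.42 to 0.33, and 5 of 30 exceeded 0.1. These deviations also carry differences between scans, so the correlations cannot show whether rats were paired. With the replicate block LTF against the DR model gave 27 regions, CaD against control 679, the other formula against control 161 and LTF against control 726. Of 1254 values for 41 named regions, 1125 moved by less than the SD of the DR model arrays at that region, 121 by more and 8 changed sign. That yardstick is wide where these arrays were unlike, so the 1125 is not a measure of stability. At chr7:26306570-26306936, with an SD of 0.67, none of 29 values counted as moved, though they ran from 0.08 to 0.90. At chr10:88959482-88961167, with an SD of 0.01, 13 of 31 did, within -0.23 to -0.14. The DR model minus the mean of the other groups became 1.84e-05 at chr13:72535103-72535478 in the authors' table. With the median over probes it became -0.0173 at chr17:83256194-83257553 and -0.0624 at chr1:201635128-201636034. With a gap of 1000 bp it became -0.0098 at chrX:154193551-154194048 and 0.0304 at chr3:169977081-169979601. Scan as a fixed block, where the difference leaves out LTF, gave -0.0412 at chr17:83256194-83257553. Within scan 6 the value is another measure, DR model replicate 3 minus CaD replicates 1 and 2. It was -0.0201 at chr7:140507100-140508866 and -0.0184 at chr1:211550113-211551536. The share of regions chosen without DR model replicate 3 where that array was on the same side was 4.75% to 9.27% for higher and 0% to 8.94% for lower regions over the settings of signal, probes and joining. The share over all regions was computed in the main setting alone, at 2.58% and 0.393%, so no excess is read from these ranges. The cause of the shifts between settings was not tested. Probes whose MeDIP signal was not well above background limit the ratios of weakly recovered regions.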
